A study of Mus musculus with 20 samples.

Results

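The CD11c-CD11b+ myeloid cells of MC38-OVA tumours were compared between irradiated and untreated mice. MC38-OVA is a mouse colon carcinoma line that expresses ovalbumin, grown in C57BL/6 mice. CD11b, encoded by Itgam, is an integrin of monocytes, macrophages and granulocytes, and CD11c, encoded by Itgax, is an integrin of dendritic cells and many tumour macrophages. The series holds 20 RNA libraries, of 4 sorted cell populations in 5 treatment groups, and 5 of them are CD11c-CD11b+ cells. The members were chosen by their labels: 4 libraries from tumours that received 8 Gy of focal radiotherapy (RT) on day 12, and 1 library from untreated tumours, which the design text describes as sham-irradiated. The 4 irradiated groups were RT alone, RT with 400 ug of an antibody against SIRPa on days 12, 14 and 16, RT with 250 ug of an antibody against PD-1 on days 12 and 15, and RT combined with both. Binding of CD47 to SIRPa on myeloid cells holds back phagocytosis, and signals through PD-1 dampen T cells. Tumours were taken on day 17, or 5 days after the radiation, and each library came from the pooled leukocytes of 10 tumours, 1 per mouse.

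Ionising radiation breaks DNA, and DNA that reaches the cytosol is sensed by cGAS, which signals through STING to the transcription factor IRF3 and to type I interferon. Interferon binds its receptor on the same or on neighbouring cells, and the receptor kinases activate a complex of transcription factors that binds the interferon-stimulated response element (ISRE) in the promoters of antiviral genes. Monocytes recruited from blood are a large part of the CD11b+ cells of tumours and respond strongly to interferon. TREX1 degrades cytosolic DNA and so limits this pathway.

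Levels are in CPM, each gene's counts relative to its library's total after TMM normalisation of the 5 libraries, and values of the irradiated libraries are given in this order: RT alone, then with anti-SIRPa, then with anti-PD-1, then with both. Means ± SD are over these 4 libraries, which differ in antibody, and the untreated group is 1 library. No group has a second library, so the test took its spread from the 4 differently treated irradiated pools and assumed that the untreated pool varies like them. Its p-values do not measure the spread between pools of like treatment. The irradiated libraries held 26221672, 25695925, 27869673 and 27137150 counts, and the untreated one 29926650. The RT with anti-SIRPa library stood apart from the other irradiated libraries: of 10203 genes at 10 CPM or more, 374 lay 2-fold or more from the mean of the others, against 62 for RT, 113 for RT with anti-PD-1 and 47 for RT with both. The untreated library differed in make-up as well. Mitochondrial genes held 0.909, 1.316, 1.06 and 1.006% of counts in the irradiated libraries and 1.891% in the untreated one. Itgam was at 1411, 1024, 1867 and 1541 CPM in irradiated libraries and at 749 CPM in the untreated one. Ptprc, which encodes the pan-leukocyte antigen CD45, was at 878, 772, 1144 and 1015 CPM in irradiated libraries and 481 CPM in the untreated one. The 10 markers of fibroblasts and endothelium summed to 1934, 2925, 1757 and 1423 CPM in irradiated libraries and 6315 CPM in the untreated one, of which Col3a1 alone was 4782 CPM, and the other 9 summed to 873, 952, 917 and 596 CPM in irradiated libraries and 1533 CPM in the untreated one. Of the 10, 6 were highest in the untreated library, 3 overlapped and the endothelial marker Pecam1 was lowest there, at 38.2, 29.8, 85.5 and 63.5 CPM in irradiated libraries and 23.9 CPM in the untreated one. Their part in the results that follow was not tested, and in RNA from sorted bulk cells fewer cells of a type cannot be told apart from less RNA per cell. Itgax was not absent from these CD11c- cells, at 77.9, 69.8, 77.1 and 73.3 CPM in irradiated libraries and 122 CPM in the untreated one.

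**Figure D1:**
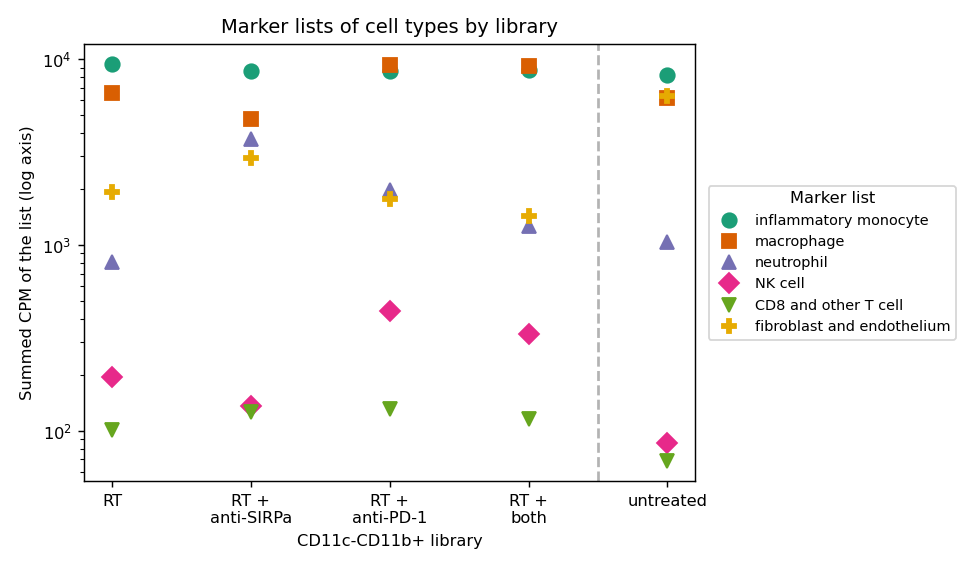
Summed CPM (log axis) of 6 marker lists in each CD11c-CD11b+ library, with 1 point per library, the 4 irradiated libraries on the left and the untreated one on the right. The fibroblast and endothelium markers are highest in the untreated library at 6315 CPM, and the neutrophil markers are highest in the RT with anti-SIRPa library at 3720 CPM.

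The first question was how irradiation changed the RNA of these cells. Over 21292 genes, 1 was called higher (0.0047%) and 0 were called lower (0.0%) in irradiated libraries at an adjusted p under 0.05 by edgeR's quasi-likelihood test. Without adjustment, 2189 genes (10.3%) were higher and 1864 (8.75%) lower at a p under 0.05, and DESeq2 called 931 higher and 405 lower. The untreated library was the lowest of the 5 for 29.0% of genes and the highest for 31.5%, and these shares are the background for the counts of the gene lists. The 7 sort markers, Itgam among them, had a median log2 fold change of 0.83, with 4 lowest and 1 highest in the untreated library. The medians of interferon signalling (0.86), checkpoint (0.87), myeloid development (0.9) and MHC class I genes (0.49) lay near or below it. Whether these shifts share a cause was not tested. The call depended on the libraries used. When the 15 myeloid libraries were fitted together, so that the spread came from all 3 myeloid populations, 105 of 23009 genes rose (0.456%) and 21 fell (0.0913%) in irradiated CD11c-CD11b+ cells. When the RT with anti-SIRPa library was left out, 1629 of 21129 genes rose (7.71%) and 1764 fell (8.35%), while leaving out any other irradiated library gave between 0 and 4 calls in all. Leaving out RT with anti-SIRPa removed the library farthest from the other irradiated ones and left 2 residual degrees of freedom, against 3 with all 5 libraries. The test takes its spread from the libraries left, so passing there is no separate support for a gene. In the 15-library fit the libraries of 1 pool share tumours, and the pool is not a term. It treated these libraries as independent, so its p-values can be too small. The untreated libraries of the 3 populations came from 1 pool. Adjusted p-values are from the 5 libraries unless the 15-library fit is named.

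Interferon-induced genes were among those with the largest differences. Slfn4, a Schlafen family gene of mouse myeloid cells (chromosome 11, 83175186 to 83190216 on GRCm38), was at 2208, 1732, 2918 and 2341 CPM in irradiated libraries and at 378 CPM in the untreated one. Every irradiated library held over 4-fold more than the untreated one, and the log2 fold change was 2.61 ± 0.34 (SE). It did not pass in the 5 libraries (edgeR adjusted p = 0.166) and passed in the 15-library fit (edgeR adjusted p = 0.0348). Trex1, the cytosolic DNA exonuclease (chromosome 9, 109057933 to 109059734), was at 42.7, 44.5, 49.4 and 50.1 CPM in irradiated libraries and 8.37 CPM in the untreated one. The irradiated values lay close together, at 46.7 ± 3.62 CPM, and Trex1 had the smallest adjusted p of any gene that was higher and not listed at 0 in a library (log2 fold change 2.48 ± 0.2, edgeR adjusted p = 0.0686, and 0.124 in the 15-library fit). Rsad2, which encodes the antiviral enzyme viperin (chromosome 12, 26442746 to 26456452), was at 799, 703, 1034 and 939 CPM in irradiated libraries and 247 CPM in the untreated one. Its log2 fold change was 1.81 ± 0.27 (edgeR adjusted p = 0.166) and it rose in the 15-library fit (edgeR adjusted p = 0.0259). Without the RT with anti-SIRPa library the log2 fold changes of Slfn4 and Trex1 were 2.72 and 2.5, near those with it.

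**Figure D2:**
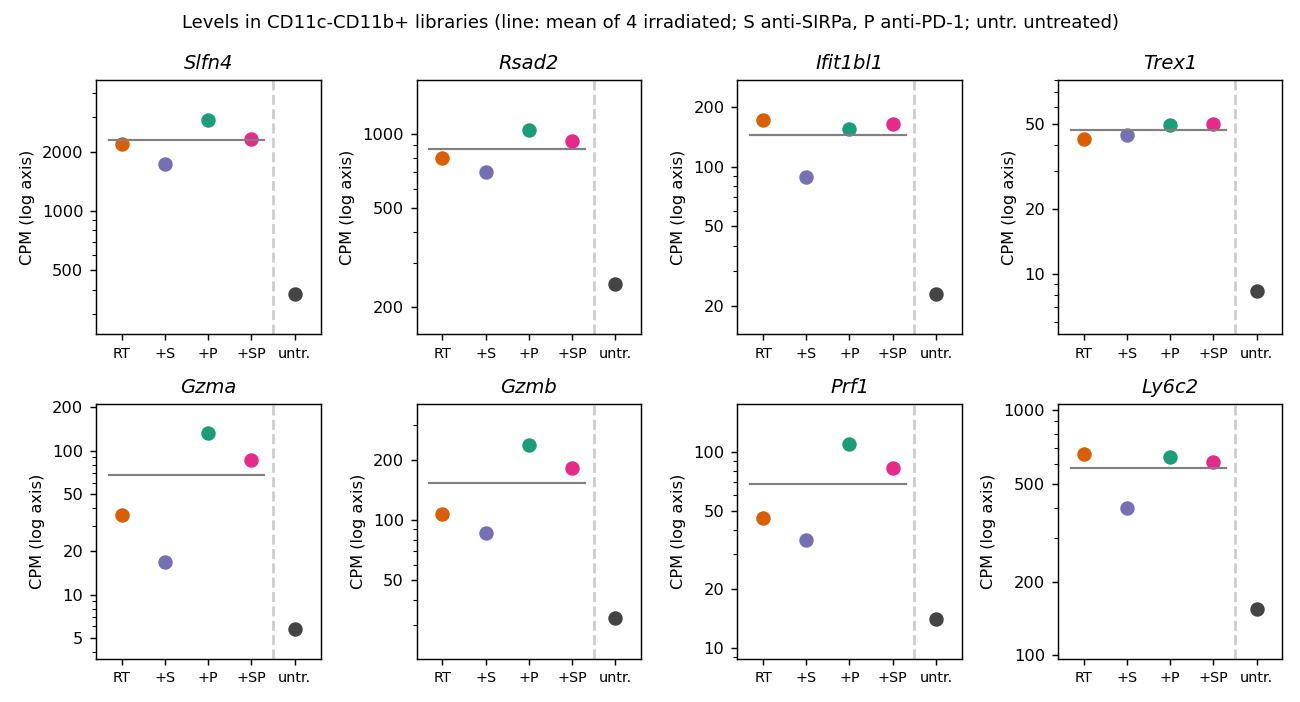
CPM (log axis) of 8 genes in each CD11c-CD11b+ library, with the 4 irradiated libraries on the left and the untreated one on the right of each panel, and the mean of the irradiated libraries as a line. In every panel the untreated library is the lowest, and for Gzma, Gzmb and Prf1 the irradiated libraries spread more widely than for Trex1 or Rsad2.

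The antiviral effectors, proteins that act on viral RNA or on the proteins of infected cells, were at higher levels in the irradiated libraries. Of 27 measured members, 27 were lowest in the untreated library, where 29.0% of all genes were, and 25 had an unadjusted p under 0.05 in the higher direction. None passed in the 5 libraries (smallest edgeR adjusted p = 0.166), 16 passed in the 15-library fit and 26 passed without the RT with anti-SIRPa library. Their median log2 fold change was 1.24, against 0.02 over all genes tested, and the median difference of each irradiated library from the untreated one was 1.24, 1.03, 1.26 and 1.34. The largest difference was in Ifit1bl1, of the IFIT family of RNA-binding proteins, at 171, 88.9, 155 and 163 CPM in irradiated libraries and 22.9 CPM in the untreated one (log2 fold change 2.66 ± 0.42, edgeR adjusted p = 0.0266 in the 15-library fit). Mx1, a gene of the dynamin-like GTPase family, was at 323, 205, 282 and 342 CPM in irradiated libraries and 86.6 CPM in the untreated one. Isg20, an RNA exonuclease, was at 71, 77.8, 95.4 and 91.4 CPM in irradiated libraries and 27.5 CPM in the untreated one. Ifit2 was at 631, 396, 627 and 683 CPM in irradiated libraries and 193 CPM in the untreated one. Mx1, Isg20, Ifit2 and Oasl1, which represses translation of Irf7 in mouse, rose in the 15-library fit with edgeR adjusted p-values of 0.0259, 0.0259, 0.0347 and 0.0259. In Ifit1bl1, Mx1 and Ifit2 the RT with anti-SIRPa library was the lowest of the irradiated libraries and still over 2-fold above the untreated one. Trim30c, of the TRIM30 family and outside this list, had a similar range, at 50.8, 32.2, 58.4 and 59.8 CPM in irradiated libraries and 8.63 CPM in the untreated one, and rose in the 15-library fit (edgeR adjusted p = 0.0259). The Ifit, Oas, Trim30, Schlafen, Gbp, Ifi200, Ly6 and granzyme families hold near-identical copies, so the authors' counting could split reads between their members.

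Promoter sequences are shown for members of these groups because the ISRE is where the interferon-activated complex binds. The ISRE core was searched as GAAA, any 2 bases and GAAA on both strands, and the core of the gamma-activated site (GAS), named for its response to interferon gamma, as TTC, any 3 bases and GAA. Neither motif contains the other. RefSeq promoters (GRCm38.p6, 250 bases before to 50 after the start) were matched for 12381 tested genes. The ISRE core was in 3.25% of all these promoters, in 118 of 1344 (8.78%) of genes higher at an unadjusted p under 0.05, in 29 of 1338 (2.17%) of genes lower, and in 16 of 75 (21.3%) of genes that rose in the 15-library fit. By list it was in 12 of 21 antiviral effectors (57.1%), 9 of 9 guanylate-binding and immunity-related GTPases, 7 of 17 genes of nucleic acid sensing (41.2%), 3 of 7 Schlafen genes (42.9%), 2 of 14 interferon signalling genes (14.3%), 2 of 18 cytotoxic effectors (11.1%) and 0 of 8 cholesterol synthesis genes. The GAS core was in 7.15% of all promoters in 6 of 9 of the same GTPases (66.7%), 5 of 14 interferon signalling genes (35.7%), 6 of 21 antiviral effectors (28.6%), 5 of 18 cytotoxic effectors (27.8%), 1 of 17 genes of nucleic acid sensing (5.88%), 0 of 7 Schlafen genes and 0 of 8 cholesterol synthesis genes. The 150 bases before the start are given 5′ to 3′ on the gene's strand for 5 genes that hold the ISRE core there and for Slfn4, Trex1 and Prf1, which do not, with the matches in capitals. The first base of the match lies at -120 in Rsad2, -104 in Ifit1bl1, -58 in Ifi208, -48 in Slfn8 and -97 in Gzma, counted from the start. A match is a description of the letters and no site of binding.
Rsad2 (chromosome 12, 26456453 to 26456602, minus strand): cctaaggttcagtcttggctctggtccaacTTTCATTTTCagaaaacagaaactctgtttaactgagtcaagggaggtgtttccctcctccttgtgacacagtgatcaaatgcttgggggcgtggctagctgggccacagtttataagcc
Ifit1bl1 (chromosome 19, 34601969 to 34602118, minus strand): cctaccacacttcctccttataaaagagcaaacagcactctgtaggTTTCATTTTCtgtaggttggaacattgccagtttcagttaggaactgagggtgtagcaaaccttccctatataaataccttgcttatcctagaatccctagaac
Ifi208 (chromosome 1, 173673515 to 173673664, plus strand): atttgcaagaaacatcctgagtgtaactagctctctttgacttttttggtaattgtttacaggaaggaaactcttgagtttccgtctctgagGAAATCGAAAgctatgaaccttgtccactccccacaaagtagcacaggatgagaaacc
Slfn8 (chromosome 11, 83020811 to 83020960, minus strand): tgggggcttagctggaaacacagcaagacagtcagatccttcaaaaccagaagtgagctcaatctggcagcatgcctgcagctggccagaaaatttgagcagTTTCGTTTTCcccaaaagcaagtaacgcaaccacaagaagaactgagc
Gzma (chromosome 13, 113100982 to 113101131, minus strand): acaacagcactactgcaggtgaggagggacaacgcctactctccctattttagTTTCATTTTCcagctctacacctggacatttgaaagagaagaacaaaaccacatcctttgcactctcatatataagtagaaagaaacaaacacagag
Slfn4 (chromosome 11, 83175036 to 83175185, plus strand): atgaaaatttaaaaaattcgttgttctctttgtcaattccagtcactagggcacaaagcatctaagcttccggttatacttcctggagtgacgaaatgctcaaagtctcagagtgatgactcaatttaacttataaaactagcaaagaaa
Trex1 (chromosome 9, 109059724 to 109059873, minus strand): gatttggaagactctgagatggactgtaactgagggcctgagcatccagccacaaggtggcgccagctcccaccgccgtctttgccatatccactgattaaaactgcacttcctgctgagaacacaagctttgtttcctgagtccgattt
Prf1 (chromosome 10, 61297686 to 61297835, plus strand): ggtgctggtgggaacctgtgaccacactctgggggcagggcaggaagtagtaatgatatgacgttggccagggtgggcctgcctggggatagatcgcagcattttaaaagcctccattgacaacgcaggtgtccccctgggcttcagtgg

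The Schlafen genes lie in 1 cluster on chromosome 11 and encode interferon-induced regulators of RNA and of cell proliferation. All 7 measured members were lowest in the untreated library, and they summed to 4396, 3382, 5401 and 4762 CPM in irradiated libraries and 1226 CPM in the untreated one. Slfn1, Slfn2, Slfn4 and Slfn8 rose in the 15-library fit. Slfn1 was at 272, 224, 359 and 312 CPM in irradiated libraries and 86.5 CPM in the untreated one (log2 fold change 1.75 ± 0.29, edgeR adjusted p = 0.0461 in the 15-library fit). Slfn2, which keeps mouse T cells and monocytes quiescent, was at 458, 410, 608 and 534 CPM in irradiated libraries and 213 CPM in the untreated one. Slfn5 was at 973, 660, 1014 and 1072 CPM in irradiated libraries and 312 CPM in the untreated one and missed the limit in the 15-library fit (edgeR adjusted p = 0.0649). Slfn8 had a log2 fold change of 1.39 ± 0.3, and Slfn9 and Slfn3 were nearest to the untreated level, with log2 fold changes of 0.52 ± 0.21 and 0.44 ± 0.2. The median log2 fold change of the 7 was 1.39.

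The guanylate-binding proteins and immunity-related GTPases, which attack vacuoles of intracellular microbes and respond strongly to interferon gamma, were also lowest in the untreated library for 14 of 14 members. Of these 1 passed in the 15-library fit and 14 passed without the RT with anti-SIRPa library, and their median log2 fold change was 1.12. Gbp5 was at 227, 161, 276 and 285 CPM in irradiated libraries and 73.7 CPM in the untreated one. Gbp2 was at 643, 469, 828 and 877 CPM in irradiated libraries and 286 CPM in the untreated one. Tgtp1 was at 120, 86.9, 145 and 142 CPM in irradiated libraries and 49.3 CPM in the untreated one. In all 3 the RT with anti-SIRPa library was the lowest of the irradiated libraries and did not reach down to the untreated one.

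Among 21 genes of cytosolic DNA and RNA sensing, 20 were lowest in the untreated library, 19 had an unadjusted p under 0.05 and the median log2 fold change was 1.11. Ifi208, one of the mouse Ifi200 genes on chromosome 1, was at 119, 67.7, 136 and 142 CPM in irradiated libraries and 26.1 CPM in the untreated one (log2 fold change 2.15 ± 0.44, edgeR adjusted p = 0.029 in the 15-library fit). Ifi213 and Ifi209 rose there too, with edgeR adjusted p-values of 0.0461 and 0.044, and Ifi204 and Ifi205 had log2 fold changes of 1.52 ± 0.4 and 1.69 ± 0.41. The log2 fold changes of Cgas, the DNA sensor, and of Tmem173, which encodes STING, were 0.29 ± 0.19 and 0.51 ± 0.18. Cgas was at 35.1, 27.2, 30.8 and 33.4 CPM in irradiated libraries and 25.9 CPM in the untreated one. Tmem173 was at 107, 96.9, 119 and 121 CPM in irradiated libraries and 78.3 CPM in the untreated one. These last 2 genes were chosen after their values were seen, for their place in the pathway.

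Of 16 genes of interferon signalling, 13 were lowest in the untreated library and 11 had an unadjusted p under 0.05, with a median log2 fold change of 0.86. Irf7, the interferon-induced factor that amplifies type I interferon production, was at 795, 548, 904 and 914 CPM in irradiated libraries and 265 CPM in the untreated one (edgeR adjusted p = 0.038 in the 15-library fit). Usp18, which removes ISG15 from proteins and damps the interferon receptor, was at 164, 133, 172 and 171 CPM in irradiated libraries and 66.3 CPM in the untreated one (edgeR adjusted p = 0.0259 in the 15-library fit). Stat2, a factor of the interferon-activated complex, was at 431, 342, 425 and 460 CPM in irradiated libraries and 202 CPM in the untreated one. Of the interferon genes, 3 could be tested. Ifnb1, which encodes interferon beta, was at 1.62, 1.08, 1.53 and 1.98 CPM in irradiated libraries and 1.42 CPM in the untreated one, so the groups overlapped. Ifng, which encodes interferon gamma, was at 8.06, 12.3, 16.8 and 9.94 CPM in irradiated libraries and 3.78 CPM in the untreated one, without overlap (log2 fold change 1.64 ± 0.45, edgeR adjusted p = 0.179). Ifnk was at most 1.28 CPM in every library.

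**Figure D3:**
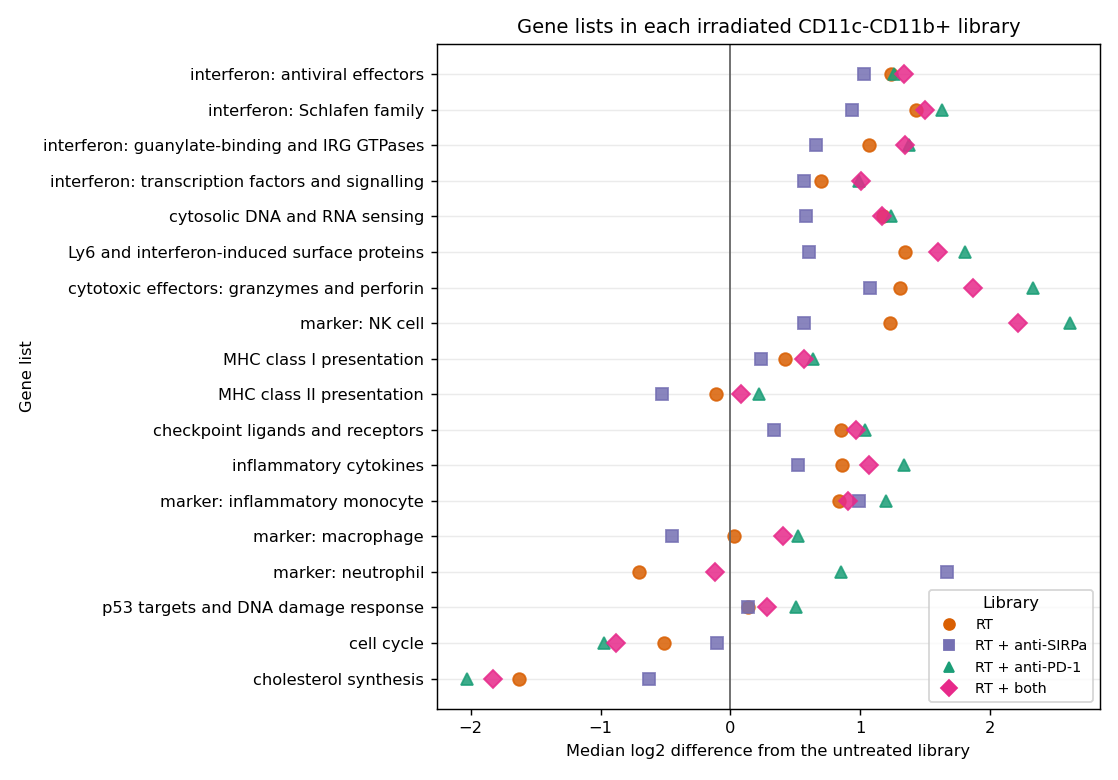
Median log2 difference (x axis) of each irradiated CD11c-CD11b+ library from the untreated one for 18 gene lists (rows), with 1 point per irradiated library and a line at 0. The interferon, Ly6 and cytotoxic lists lie to the right of 0 for all 4 libraries, the cholesterol and cell cycle lists lie to the left for all 4, and the neutrophil markers spread over both sides.

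Genes of Ly6 and interferon-induced surface proteins, and several monocyte markers, had higher levels in the irradiated libraries. Of 14 genes of Ly6 and interferon-induced surface proteins, 12 were lowest in the untreated library and the median log2 fold change was 1.43. Ly6c2, which encodes the Ly6C antigen that marks inflammatory monocytes, was at 661, 399, 643 and 616 CPM in irradiated libraries and 155 CPM in the untreated one (log2 fold change 1.9 ± 0.33, edgeR adjusted p = 0.0369 in the 15-library fit). Ly6c1 and Plac8 rose there too, with an edgeR adjusted p of 0.0266 each. Plac8 was at 619, 444, 686 and 632 CPM in irradiated libraries and 194 CPM in the untreated one. Ccr2, the receptor that brings monocytes out of the bone marrow, was at 576, 379, 647 and 509 CPM in irradiated libraries and 281 CPM in the untreated one. Of the 12 inflammatory monocyte markers as a whole, 9 were lowest and 2 highest in the untreated library, and their sum was 9416, 8626, 8605 and 8751 CPM in irradiated libraries and 8176 CPM in the untreated one. Without Fn1, the largest member in the untreated library, the sum was 4040, 3226, 4434 and 4150 CPM in irradiated libraries and 2260 CPM in the untreated one. The list also holds Cd177, which encodes a neutrophil surface protein. Cx3cr1, a receptor of patrolling monocytes and resident macrophages, was highest in the untreated library, at 122, 127, 98.1 and 127 CPM in irradiated libraries and 267 CPM in the untreated one (log2 fold change -1.17 ± 0.17, edgeR adjusted p = 0.166).

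Macrophage markers showed no common direction. Of 14 members, 4 were lowest and 2 highest in the untreated library, and the median log2 fold change was 0.21. Adgre1, which encodes F4/80, was at 256, 180, 331 and 311 CPM in irradiated libraries and 234 CPM in the untreated one, so the groups overlapped. Fcgr1, the interferon-responsive high-affinity Fc receptor, was at 530, 348, 692 and 641 CPM in irradiated libraries and 189 CPM in the untreated one. C1qc, a complement subunit made by macrophages, was at 334, 289, 451 and 437 CPM in irradiated libraries and 488 CPM in the untreated one. Fcrls, an Fc receptor-like gene of mouse macrophages, was at 25.4, 33.6, 20.9 and 33.4 CPM in irradiated libraries and 125 CPM in the untreated one (log2 fold change -2.14 ± 0.25, edgeR adjusted p = 0.166). The neutrophil markers varied between the irradiated libraries: S100a9 was at 178, 1406, 602 and 332 CPM in irradiated libraries and 321 CPM in the untreated one. The list's median log2 fold change was 0.83, and the median differences of the irradiated libraries from the untreated one were -0.7, 1.67, 0.85 and -0.12. Such a median, taken over the mean log2 CPM of the irradiated libraries left, was -0.06 without RT with anti-SIRPa. It was 0.3 without RT with anti-PD-1, 0.64 without RT with both and 0.88 without RT alone.

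MHC class I genes, which present peptides to CD8 T cells, were lowest in the untreated library for 18 of 19 members, with a median log2 fold change of 0.49 and 8 members at an unadjusted p under 0.05. Nlrc5, the transcriptional activator of class I genes, was at 414, 296, 428 and 487 CPM in irradiated libraries and 190 CPM in the untreated one. H2-T23, which encodes the non-classical molecule Qa-1, was at 346, 258, 463 and 409 CPM in irradiated libraries and 161 CPM in the untreated one. The 11 class II genes, which present peptides to CD4 T cells, had a median log2 fold change of 0.04, and H2-Eb1 was highest in the untreated library, at 252, 196, 299 and 293 CPM in irradiated libraries and 404 CPM in the untreated one.

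Of 17 checkpoint ligands and receptors, 15 were lowest in the untreated library and 11 had an unadjusted p under 0.05 in the higher direction, and none passed in either fit. Cd274, which encodes PD-L1, was at 334, 295, 702 and 504 CPM in irradiated libraries and 131 CPM in the untreated one, and both libraries with anti-PD-1 were above the pair without it (log2 fold change 1.8 ± 0.52, edgeR adjusted p = 0.185). Cd80, a ligand of CD28 and CTLA-4, was at 51.9, 41.8, 66.2 and 55.2 CPM in irradiated libraries and 24.6 CPM in the untreated one. Sirpa itself was at 665, 468, 850 and 764 CPM in irradiated libraries and 425 CPM in the untreated one (log2 fold change 0.69 ± 0.33, edgeR adjusted p = 0.302). Its ligand gene Cd47 was at 456, 356, 537 and 471 CPM in irradiated libraries and 337 CPM in the untreated one. Pdcd1, which encodes PD-1, was at 3.99, 6.57, 3.57 and 3.7 CPM in irradiated libraries and 2 CPM in the untreated one.

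Among cytokines, 12 of 14 were lowest in the untreated library, and Il15 and Osm passed in the 15-library fit. Il15, which sustains NK cells and memory CD8 T cells, was at 35, 41.5, 51.3 and 42.9 CPM in irradiated libraries and 15.4 CPM in the untreated one (log2 fold change 1.47 ± 0.25, edgeR adjusted p = 0.0259 in the 15-library fit). Osm, which encodes the IL-6 family cytokine oncostatin M, was at 477, 512, 542 and 508 CPM in irradiated libraries and 215 CPM in the untreated one, with a small spread among the irradiated libraries (510 ± 26.9 CPM). Il1b was at 624, 1234, 1113 and 845 CPM in irradiated libraries and 344 CPM in the untreated one, and its antagonist Il1rn at 353, 328, 755 and 503 CPM in irradiated libraries and 131 CPM in the untreated one. Of 11 chemokines that attract T cells or monocytes, Ccl5 rose in the 15-library fit, at 146, 128, 145 and 147 CPM in irradiated libraries and 59.1 CPM in the untreated one (edgeR adjusted p = 0.029). Cxcl10, a ligand of CXCR3 on T cells, was at 596, 433, 493 and 576 CPM in irradiated libraries and 231 CPM in the untreated one. The neutrophil attractants were split: Cxcl3 was at 199, 310, 525 and 241 CPM in irradiated libraries and 82.8 CPM in the untreated one, whereas Cxcl1 was at 79.6, 70.5, 61.4 and 55.8 CPM in irradiated libraries and 183 CPM in the untreated one. Genes of nitric oxide and arginine metabolism were lowest in the untreated library for 7 of 10 members, among them Acod1, which makes itaconate, at 286, 521, 507 and 434 CPM in irradiated libraries and 144 CPM in the untreated one. Arg1, the arginase of tumour macrophages, was at 1297, 618, 2255 and 1347 CPM in irradiated libraries and 443 CPM in the untreated one.

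Cytotoxic effector genes were higher in every irradiated library for 18 of 19 members. Granzymes are the proteases of cytotoxic granules, and perforin makes the pore that lets them into a target cell. The list had a median log2 fold change of 1.78, 14 members had an unadjusted p under 0.05 in the higher direction, 0 passed in the 15-library fit, and 12 passed without the RT with anti-SIRPa library. Gzma (chromosome 13, 113093825 to 113100981) was at 35.8, 16.8, 132 and 86.5 CPM in irradiated libraries and 5.72 CPM in the untreated one (log2 fold change 3.56 ± 1.24, edgeR adjusted p = 0.218). Prf1, which encodes perforin (chromosome 10, 61297833 to 61304680), was at 46, 35.6, 109 and 82.5 CPM in irradiated libraries and 14.1 CPM in the untreated one (2.28 ± 0.68, edgeR adjusted p = 0.189). Gzmb (chromosome 14, 56258838 to 56262260) was at 107, 86.5, 239 and 184 CPM in irradiated libraries and 32.4 CPM in the untreated one (2.25 ± 0.62, edgeR adjusted p = 0.179). In all 3 genes both libraries with anti-PD-1 were above the pair without it, and the lowest irradiated library was RT with anti-SIRPa. Gzmc, Gzmd, Gzme, Gzmf and Gzmg kept the same order of the lowest library, with log2 fold changes of 1.86 ± 0.58, 1.77 ± 0.65, 2.38 ± 0.74, 2.13 ± 0.67 and 1.46 ± 0.54. Gzmk was listed at 0 in the untreated library and at 0.422 to 0.692 CPM in the irradiated ones, and Gzmm was under 1 CPM in every library. Nkg7, a granule protein of NK and T cells, was at 15.3, 12.5, 27.2 and 28.8 CPM in irradiated libraries and 6.11 CPM in the untreated one. Of the other members, Fasl, Ctsw, Cst7, Serpinb9 and Serpinb9b were lowest in the untreated library, Tnfsf10 (TRAIL) had a log2 fold change of 0.95 ± 0.24, and Serpina3g overlapped between the groups.

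Markers of NK cells, which carry these proteins, varied with the cytotoxic genes across the libraries. Of 15 NK markers, 13 were lowest in the untreated library, Klra4 was highest there and Klrb1c overlapped. Their summed level was 195, 136, 442 and 329 CPM in irradiated libraries and 85.4 CPM in the untreated one. Without Klra4, the largest member in the untreated library, it was 175, 109, 419 and 313 CPM in irradiated libraries and 53.7 CPM in the untreated one. The summed cytotoxic effectors had the same order of libraries, at 475, 376, 1003 and 763 CPM in irradiated libraries and 198 CPM in the untreated one. The lists share Gzma, Prf1 and Serpinb9b, which count in both sums, so the matching order is in part set by the choice of genes. A sum without the shared genes was not made. The defining NK receptor gene Ncr1 was at 6.44, 3.11, 17.4 and 12.8 CPM in irradiated libraries and 2.75 CPM in the untreated one, Klrb1c (NK1.1) at 8.29, 2.88, 18.3 and 15.8 CPM in irradiated libraries and 3.07 CPM in the untreated one, and no marker of the list was at 0. Klrk1, which encodes the activating receptor NKG2D, was at 49.8, 27.8, 72.9 and 59.5 CPM in irradiated libraries and 13.5 CPM in the untreated one. The 14 T cell markers summed to 101, 126, 130 and 116 CPM in irradiated libraries and 68.2 CPM in the untreated one. Of these, 10 were lowest in the untreated library, 1 was highest and 3 overlapped, and 5 had an unadjusted p under 0.05 in the higher direction. The T cell receptor component Cd3e was among those that overlapped, at 5.2, 8.34, 5.87 and 7.21 CPM in irradiated libraries and 5.91 CPM in the untreated one. The part of NK or T cell RNA in the granzyme values was not tested. Ncr1 and Cd3e were chosen after their values were seen, as defining markers.

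Genes of cholesterol synthesis had the lowest median log2 fold change of the 43 lists, -1.5. Of 14 measured members, 13 were highest in the untreated library, where 31.5% of all genes were, 12 had an unadjusted p under 0.05 in the lower direction, none passed in the 5 libraries or in the 15-library fit, and 12 passed without the RT with anti-SIRPa library. They summed to 500, 775, 367 and 434 CPM in irradiated libraries and 1156 CPM in the untreated one. Sqle, which encodes squalene epoxidase, was at 18.9, 42.2, 10.2 and 15.2 CPM in irradiated libraries and 79.8 CPM in the untreated one (log2 fold change -1.88 ± 0.61, edgeR adjusted p = 0.207). Cyp51, the lanosterol demethylase, was at 29.3, 67.7, 18.5 and 24.2 CPM in irradiated libraries and 128 CPM in the untreated one. In both the RT with anti-SIRPa library was the nearest to the untreated one. Sqle had the same direction in the other myeloid cells of these pools, with log2 ratios of the irradiated mean over the untreated library of -2.08 in CD11c+CD11b+ cells and -1.65 in CD11c+CD11b- cells. These populations were sorted from the same pooled tumours and share the untreated pool.

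Cell cycle genes were highest in the untreated library for 19 of 24 members, with a median log2 fold change of -0.58 and 6 members at an unadjusted p under 0.05. Mki67, the proliferation marker, was at 275, 322, 182 and 221 CPM in irradiated libraries and 427 CPM in the untreated one (log2 fold change -0.77 ± 0.29, edgeR adjusted p = 0.235), and Kif11, a spindle motor, at 65.9, 74.9, 46.9 and 45.7 CPM in irradiated libraries and 104 CPM in the untreated one. Targets of p53, the factor activated by DNA damage, were lowest in the untreated library for 12 of 20 members and highest for 3, with a median log2 fold change of 0.35 and 3 members at an unadjusted p under 0.05 in the higher direction. Btg2, an antiproliferative p53 target, rose in the 15-library fit, at 348, 371, 455 and 399 CPM in irradiated libraries and 213 CPM in the untreated one (log2 fold change 0.88 ± 0.2, edgeR adjusted p = 0.0461). Cdkn1a, the p21 inhibitor of the cell cycle, was at 398, 333, 520 and 455 CPM in irradiated libraries and 178 CPM in the untreated one, while Eda2r was at 13.1, 18.9, 6.9 and 7.47 CPM in irradiated libraries and 26.2 CPM in the untreated one.

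**Figure D4:**
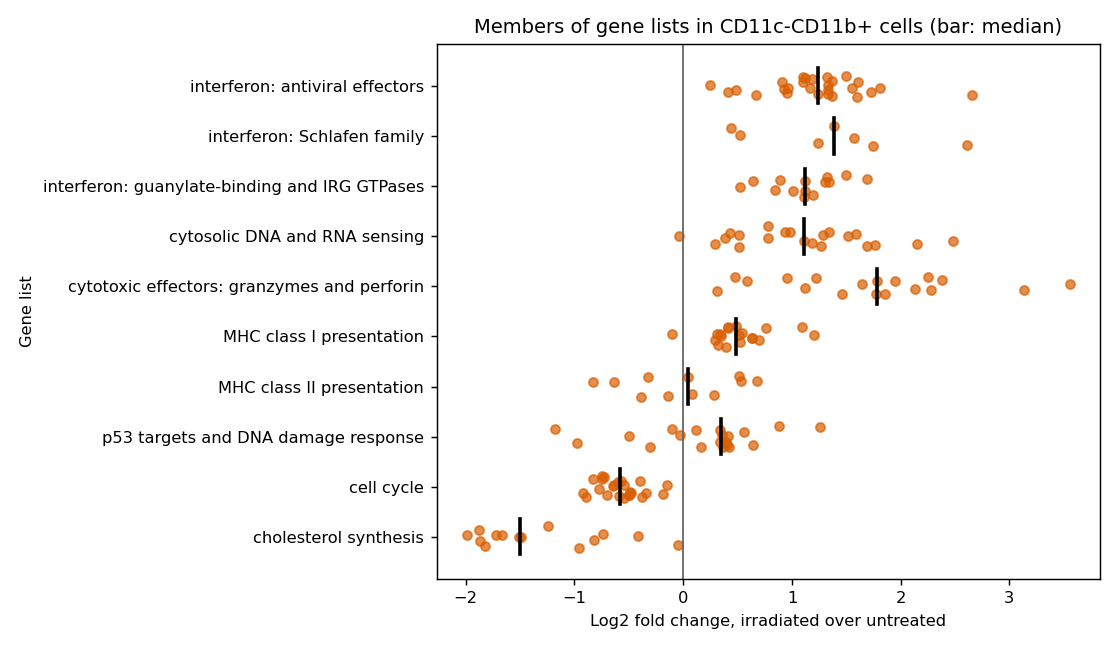
Log2 fold change of irradiated over untreated CD11c-CD11b+ libraries (x axis) for the tested members of 10 gene lists (rows) other than Gzmk, which is listed at 0 in the untreated library, with 1 point per gene, the list's median as a bar and a line at 0. All 27 antiviral effectors lie to the right of 0 and all 14 cholesterol genes to the left.

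In each direction, 20 genes were taken by the size of the fold change. They were drawn from genes at 10 CPM or more with an unadjusted edgeR p under 0.01 and no overlap between irradiated and untreated libraries. The lack of overlap in them was thus set by the choice. Among the 20 in the lower direction, Enpp2, which encodes autotaxin, was at 51.7, 86.7, 35 and 44.5 CPM in irradiated libraries and 267 CPM in the untreated one (log2 fold change -2.3 ± 0.39, edgeR adjusted p = 0.173). Itm2a was at 38, 67.1, 27.5 and 24.5 CPM in irradiated libraries and 169 CPM in the untreated one, and the teneurin gene Tenm3 at 18.6, 38.2, 11.3 and 14.7 CPM in irradiated libraries and 98.6 CPM in the untreated one. The collagen genes Col6a4 and Col11a1 had log2 fold changes of -2.56 ± 0.32 and -2.26 ± 0.51, Pdgfrl and Lrrc17 of -2.31 ± 0.47 and -2.33 ± 0.41, the cadherin Fat4 of -2.24 ± 0.41, the guidance receptor Robo2 of -2.22 ± 0.44 and the pericyte gene Rgs5 of -2.22 ± 0.47. Egr4, Nrep, Mical3, Thsd7a, Adgrl3 and Cadm1 lay between -3.14 and -2.14. Of the 10 markers of fibroblasts and endothelium, 6 were also highest in the untreated library, 1 was lowest and 3 overlapped, with a median log2 fold change of -0.6. Col3a1 was at 1062, 1974, 839 and 827 CPM in irradiated libraries and 4782 CPM in the untreated one and Postn at 77.1, 72.4, 82.5 and 38.4 CPM in irradiated libraries and 235 CPM in the untreated one. Col3a1 was also lower in the other myeloid cells of the same pools, at 649, 1202, 389 and 569 CPM in irradiated and 3617 CPM in untreated CD11c+CD11b+ cells, and at 578, 1178, 244 and 330 CPM in irradiated and 5088 CPM in untreated CD11c+CD11b- cells. None of the 20 passed in the 5 libraries. Among those of the 20 in the higher direction not yet described, F7 (coagulation factor VII) had a log2 fold change of 2.79 ± 0.71, the glycosyltransferase B3gnt5 of 2.43 ± 0.58, the ectoenzyme Bst1 (CD157) of 2.08 ± 0.46, the IL-12 receptor subunit Il12rb2 of 2.03 ± 0.48 and the VEGF receptor Flt1 of 1.96 ± 0.49, with edgeR adjusted p-values of 0.173 to 0.175. The long noncoding RNAs Mirt1 and Mirt2 had log2 fold changes of 2.25 ± 0.3 and 2.29 ± 0.55.

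Some extreme values came from genes that the deposited table lists at 0 in some libraries and at far higher counts in others. The only called gene, the long noncoding RNA B930036N10Rik, named here because it was the only one (edgeR adjusted p = 0.0157), had 321, 355, 366 and 295 counts in irradiated libraries and 0 in the untreated one, and over the whole series it was at 0 in 4 of 20 libraries and at 202 to 409 counts in the other 16. Qser1 had 0 counts in all 4 irradiated libraries and 1927 in the untreated one, and was at 0 in 14 of 20 libraries. C5ar2, a receptor for complement C5a, had 175, 249, 673 and 509 counts in irradiated libraries and 0 in the untreated one, and was at 0 in 9 of 20. Hist2h2aa2 and Igf2 were listed at 0 in 13 and 7 of 20 libraries. Igf2 had 0, 13, 1 and 1 counts in irradiated libraries and 430 in the untreated one. In CD11c+CD11b+ cells of the same pools it was at 0.204, 0.203, 0.0379 and 0 CPM in irradiated libraries and 14.3 CPM in the untreated one. No fold change is given for these genes. Without the 39 genes at 0 in 1 or more of the 5 libraries and at 100 counts or more in another, 0 genes were called in either direction by edgeR, with 2190 higher and 1882 lower at an unadjusted p under 0.05.

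The next comparison asked whether the effect of irradiation differed between CD11c-CD11b+ and CD11c+CD11b+ cells of the same pools. The difference of the log2 fold changes was tested with the pool as a block. Of 22061 genes, 66 were more positive (0.299%) and 8 more negative (0.0363%) in CD11c-CD11b+ cells, whereas 2 were called without the block and 9 without the pool given both antibodies. CPM set beside another population are from the 10 libraries of both normalised together. The called genes included 4 of 12 inflammatory monocyte markers, among them Cd177, which had been placed on that list, and 3 of 15 neutrophil markers. Cd177, a neutrophil surface protein, was at 39.5, 53.6, 35.4 and 41.7 CPM in irradiated and 25.3 CPM in untreated CD11c-CD11b+ cells, but at 4.43, 5.07, 3.11 and 3.31 CPM in irradiated and 16.4 CPM in untreated CD11c+CD11b+ cells (difference 2.8 ± 0.22, edgeR adjusted p = 0.00252). Retnlg and Cxcr2, a resistin-like gene and a chemokine receptor of neutrophils, differed by 2.76 ± 0.29 and 2.01 ± 0.28 (edgeR adjusted p = 0.0116 and 0.0323), and the eosinophil receptor gene Ccr3 by 3.17 ± 0.37 (edgeR adjusted p = 0.0182). Chil3, a chitinase-like gene of monocytes chosen after its values were seen, was at 300, 339, 307 and 331 CPM in irradiated and 301 CPM in untreated CD11c-CD11b+ cells, and at 48.9, 60.6, 44.6 and 57.1 CPM in irradiated and 240 CPM in untreated CD11c+CD11b+ cells (difference 2.28 ± 0.17, edgeR adjusted p = 0.00197). For Chil3 the irradiated and untreated CD11c-CD11b+ libraries overlapped, and the CD11c+CD11b+ libraries did not.

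In Gzmb, Prf1, Osm and Thbs1 the irradiated libraries lay above the untreated one in CD11c-CD11b+ cells and overlapped with it in CD11c+CD11b+ cells. Gzmb was at 105, 84.4, 233 and 179 CPM in irradiated and 31.6 CPM in untreated CD11c-CD11b+ cells, and at 58.3, 53.6, 85.9 and 89.4 CPM in irradiated and 66.5 CPM in untreated CD11c+CD11b+ cells (difference 2.06 ± 0.27, edgeR adjusted p = 0.0265). Prf1 differed by 1.97 ± 0.29 (edgeR adjusted p = 0.0391), with 24.7, 24.8, 42 and 39.5 CPM in irradiated and 28.2 CPM in untreated CD11c+CD11b+ cells. Osm was at 465, 500, 529 and 496 CPM in irradiated and 209 CPM in untreated CD11c-CD11b+ cells, and at 263, 254, 278 and 286 CPM in irradiated and 271 CPM in untreated CD11c+CD11b+ cells (difference 1.25 ± 0.16, edgeR adjusted p = 0.0241). Plac8 and Thbs1, which encodes the matrix protein thrombospondin, differed by 1.27 ± 0.19 and 1.67 ± 0.25 (edgeR adjusted p = 0.0391 and 0.0417), and Cxcl3 by 2.61 ± 0.2 (edgeR adjusted p = 0.00197). The Cxcl3 levels did not overlap in either population and lay on opposite sides of the untreated library, with 194, 303, 512 and 235 CPM in irradiated and 80.8 CPM in untreated CD11c-CD11b+ cells, and 58.5, 82.5, 112 and 62 CPM in irradiated and 129 CPM in untreated CD11c+CD11b+ cells. Cadm1, a cell adhesion gene, differed by -2.17 ± 0.29 (edgeR adjusted p = 0.0271), with 4.38, 9.57, 4.04 and 3.94 CPM in irradiated and 25.8 CPM in untreated CD11c-CD11b+ cells and overlapping levels in CD11c+CD11b+ cells. For Kdr it was the CD11c+CD11b+ cells that stood apart from their untreated library. For Pdia6 the untreated CD11c+CD11b+ library, at 28.7 CPM, lay far below all the other libraries of both populations. In CD11c-CD11b+ cells the highest irradiated library, at 99.5 CPM, was close to the untreated one, at 102 CPM. Kdr, the receptor for VEGF, was at 9.45, 9.23, 12.8 and 16.1 CPM in irradiated and 11 CPM in untreated CD11c-CD11b+ cells, and at 39.7, 34.5, 40.2 and 49.2 CPM in irradiated and 12.4 CPM in untreated CD11c+CD11b+ cells (difference -1.63 ± 0.23, edgeR adjusted p = 0.0323). Pdia6, a disulfide isomerase, was at 95.1, 99.5, 78.7 and 68.8 CPM in irradiated and 102 CPM in untreated CD11c-CD11b+ cells, and at 77.5, 86.8, 68.1 and 85.6 CPM in irradiated and 28.7 CPM in untreated CD11c+CD11b+ cells (difference -1.74 ± 0.24, edgeR adjusted p = 0.0293). None of the 27 antiviral, 14 GTPase or 7 Schlafen genes was called here. Slfn4 was nearest (difference 1.05 ± 0.19, edgeR adjusted p = 0.0812), with 1560, 1201, 1631 and 1489 CPM in irradiated and 506 CPM in untreated CD11c+CD11b+ cells, and Trex1 (0.48 ± 0.17, edgeR adjusted p = 0.457) and Rsad2 (0.98 ± 0.26, edgeR adjusted p = 0.262) did not pass.

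**Figure D5:**
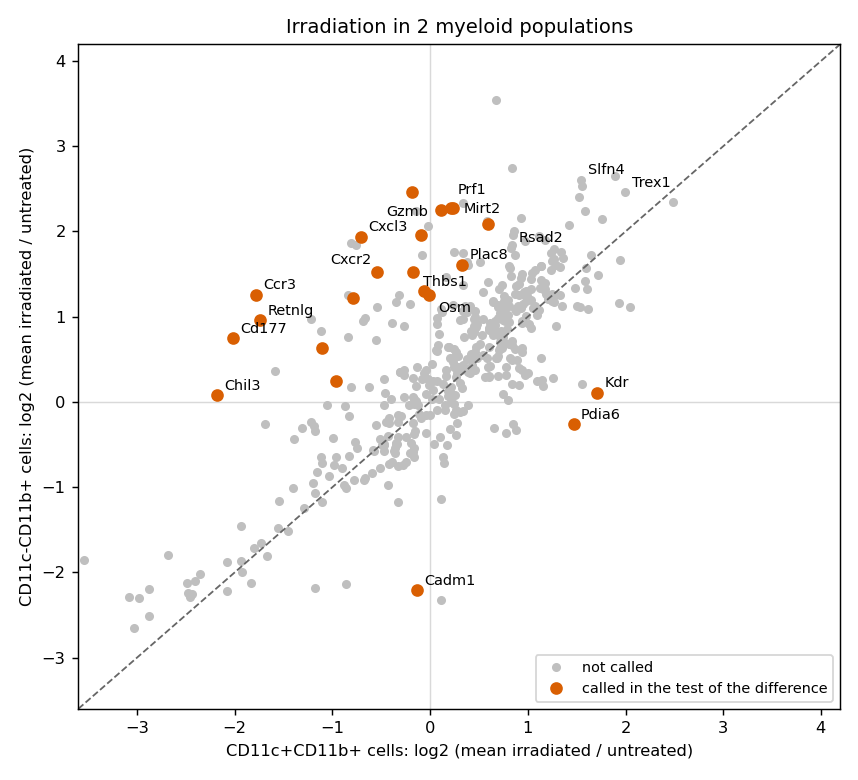
Log2 ratio of the irradiated mean over the untreated library in CD11c-CD11b+ cells (y axis) and CD11c+CD11b+ cells (x axis) for list members and the most changed genes at 10 CPM or more, with genes called in the test of the difference in colour, some of them labelled, and the line of equal ratios. Chil3 and Cd177 lie to the left of 0 on the x axis, and Gzmb and Prf1 lie near 0 on the x axis and near 2 on the y axis.

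Against CD11c+CD11b- cells, 0 of 22638 genes were more positive (0.0%) and 2 more negative (0.00883%) in CD11c-CD11b+ cells, Siglech and Mycl, with 1320 and 1244 genes at an unadjusted p under 0.05 in these directions and 239 and 245 called by DESeq2. Siglech, a receptor of plasmacytoid dendritic cells, was at 0.394, 0.121, 0.314 and 0.116 CPM in irradiated and 0.926 CPM in untreated CD11c-CD11b+ cells, and at 176, 48.4, 236 and 127 CPM in irradiated and 11.2 CPM in untreated CD11c+CD11b- cells (difference -5.65 ± 0.42, edgeR adjusted p = 0.0334). Mycl, a MYC family gene of dendritic cells, differed by -5 ± 0.37 (edgeR adjusted p = 0.0334). Without the block 0 genes were called, and without the RT with anti-SIRPa pool 106 were.

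Radiotherapy alone, free of antibodies, was set against the untreated library without a test, since each is 1 library. At 2-fold or more, 2543 of 21292 genes were higher (11.9%) and 1598 lower (7.51%). The log2 ratios were 2.55 for Slfn4, 2.34 for Trex1, 1.69 for Rsad2, 2.63 for Gzma and 1.7 for Prf1, and the median of the antiviral effectors was 1.24, of the Schlafen genes 1.43, of the cytotoxic effectors 1.31 and of the cholesterol genes -1.63. These 4 lists lay on the same side of 0 with radiotherapy alone as over the 4 irradiated libraries together. Radiotherapy alone is 1 of those 4 libraries and was set against the same untreated library, so this is not an independent check.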

How the data were processed

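RNA of 20 sorted populations was sequenced, 1 pool of 10 tumours each. The authors checked reads with FastQC 0.11.8, aligned them with HISAT2 and estimated transcript levels with StringTie on GRCm38, and used edgeR 3.34.0, per the submitters' processing notes; the versions of HISAT2 and StringTie were not given in the sources used. The deposited values are estimated counts per transcript, held as whole numbers. Counts were summed to genes through GENCODE M21 names, without 1230 of 142699 transcripts that matched no gene, at most 0.399% of the counts of a CD11c-CD11b+ library.

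Genes were kept with filterByExpr (minimum count 10, minimum total 15), scaled by TMM and tested with edgeR 4.0.16 (R 4.3.3, limma 3.58.1), quasi-likelihood, 2-sided, with Benjamini-Hochberg adjustment over all genes at a limit of 0.05. The script was tested on simulated data. SE is the absolute log2 fold change over the root of F, an approximation. Ratios of single libraries used a prior count of 2. DESeq2 1.42.0 was an alternative, with RLE scaling, no filter, antibody terms, 15 libraries, protein-coding genes and each pool left out. Leaving out genes at 0 in 1 or more libraries and the medians without a pool were chosen after seeing the data. The members, the 43 gene lists and the tests were chosen with earlier results of these data known. Named genes were 5 markers, up to 20 per direction at 10 CPM or more filled up to an unadjusted p of 0.01, without overlap of the groups, where too few passed (predicted genes left out), up to 6 per list, all interferon, granzyme and Schlafen genes, the antibody targets and the sort markers, and 8 per direction in each difference. Tables used Python 3.11.15, pandas 2.3.3, numpy 2.4.6 and scipy 1.17.1, and plots matplotlib 3.10.9. Promoters are from RefSeq. Some genes that this rule names are not reported here.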

Additional observations from a re-analysis of the deposited data

Results flagged for a closer look

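In 9 of 140 named genes, 1 irradiated library lay far from the other irradiated libraries by Dixon's test at the 95% level, and in 8 of them it was the library of RT with anti-SIRPa. Chance flags about 1 in 20 groups of this size. In that library Ccl5 was at 128 CPM against 145 to 147 in the other irradiated libraries, Ly6c1 at 53.8 against 73.8 to 77.2, Ifi205 at 175 against 322 to 349 and Ifi213 at 120 against 226 to 246. It was above the others for Cadm1, at 9.8 CPM against 4.03 to 4.48, for Mical3, at 8.61 against 2.57 to 3.29, for Pdcd1, at 6.57 against 3.57 to 3.99, and for Igf2, at 0.5 against 0 to 0.0383. The exception was Ctsk, at 5.64 CPM in the library of RT with anti-PD-1 against 2.88 to 3.14.

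The effect of irradiation differed from that in CD11c+CD11b+ cells of the same pools for 15 named genes, by the test of the difference with the pool as a block. The differences of log2 fold changes were 3.17 for Ccr3, 2.8 for Cd177, 2.76 for Retnlg, 2.61 for Cxcl3, 2.28 for Chil3, 2.06 for Gzmb, 2.03 for Mirt2, 2.01 for Cxcr2, 1.97 for Prf1, 1.67 for Thbs1, 1.27 for Plac8 and 1.25 for Osm, and -2.17 for Cadm1, -1.74 for Pdia6 and -1.63 for Kdr. The difference from CD11c+CD11b- cells was -5.65 for Siglech and -5 for Mycl.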

How the results depend on the processing

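Precision is limited mainly by 1 untreated library, and no group has a second pool. The counts of 1 gene higher and 0 lower were the same with RLE scaling. The counts were 0 and 0 with no filter on low counts, 0 and 0 over protein-coding genes only, and 0 and 0 without the 39 genes listed at 0 in 1 or more libraries. They were 1 and 1 with antibody terms, 931 and 405 with DESeq2, and 105 and 21 with the 15 myeloid libraries. Leaving out 1 irradiated pool gave 0 to 1629 higher and 0 to 1764 lower, with the highest counts without RT with anti-SIRPa. No paired analysis was possible because irradiation lies between pools, and the 15-library fit with the pool as a replicate block was not run for the same reason. The difference from CD11c+CD11b+ cells, with 74 genes called in the fit with the block, had 75 with RLE scaling, 14 with no filter, 338 with DESeq2, 2 without the replicate block and 9 to 73 without 1 pool. The difference from CD11c+CD11b- cells, with 2 called, had 0 with no filter, 484 with DESeq2, 0 without the replicate block and 0 to 106 without 1 pool. With a prior count of 10 in place of 2, radiotherapy alone had 1481 genes 2-fold or more higher, against 2543. The cause of these shifts was not tested. Named genes kept their direction except that with antibody terms the log2 fold changes were -0.09 for Cd3e, -0.03 for Ifnb1, -0.31 for Kdr and 0.00 for Serpina3g, and that without RT with both antibodies Ifnb1 was at -0.01 and Kdr at -0.06 (up to 0.27 and 0.23 without another pool).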

Other observations

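Complement, phagocytosis and lipid genes were mixed in direction. Of 12 complement genes, 7 were lowest in the untreated library, 2 were highest and 3 overlapped, and 6 had an unadjusted p under 0.05 by edgeR, with a median log2 fold change of 0.92. C3, the central complement component, was at 564, 502, 791 and 743 CPM in irradiated libraries and 307 CPM in the untreated one, and Cfb, factor B of the alternative pathway, at 424, 247, 521 and 530 CPM in irradiated libraries and 160 CPM in the untreated one (edgeR adjusted p = 0.18 and 0.198). Of 17 genes of Fc receptors and phagocytosis, 9 were lowest and 5 highest in the untreated library. Fcgr3, the low-affinity activating Fc receptor, was at 574, 535, 961 and 772 CPM in irradiated libraries and 323 CPM in the untreated one, and the scavenger receptor Msr1 at 572, 289, 753 and 563 CPM in irradiated libraries and 246 CPM in the untreated one. Of 16 genes of lipid handling and lysosome, 8 were lowest in the untreated library, 4 were highest and 4 overlapped, with a median log2 fold change of 0.37. The cholesterol exporters Abca1 and Abcg1 were lowest in the untreated library, whereas 13 of 14 cholesterol synthesis genes were highest there. Abcg1 was at 203, 137, 305 and 279 CPM in irradiated libraries and 70.3 CPM in the untreated one (log2 fold change 1.72 ± 0.46, edgeR adjusted p = 0.179), and Abca1 at 655, 386, 1084 and 922 CPM in irradiated libraries and 338 CPM in the untreated one. Ctsk, a cathepsin, was highest in the untreated library, at 2.9, 2.88, 5.64 and 3.14 CPM in irradiated libraries and 13.4 CPM in the untreated one. Plin2, which coats lipid droplets, was at 406, 395, 780 and 537 CPM in irradiated libraries and 216 CPM in the untreated one.

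The median log2 fold change over all genes tested was 0.02. The 18 genes of hypoxia and glycolysis had a median log2 fold change of 0.08 and the 12 heat shock and unfolded protein genes of 0.07. Pfkfb3, an activator of glycolysis, was at 208, 211, 346 and 265 CPM in irradiated libraries and 128 CPM in the untreated one, and Adm, the hypoxia-induced peptide adrenomedullin, at 6.71, 13.1, 8.78 and 6.09 CPM in irradiated libraries and 17.5 CPM in the untreated one. The 13 nuclear genes of the respiratory chain had a median of -0.15, and 7 were highest in the untreated library. The 5 tested eosinophil markers were all lowest in the untreated library, with a median log2 fold change of 1.27, and they summed to 32.3, 19.1, 38.1 and 33.4 CPM in irradiated libraries and 13.2 CPM in the untreated one. Without Ccr3, the largest member in the untreated library, the sum was 15.5, 9.53, 18.9 and 17.7 CPM in irradiated libraries and 6.85 CPM in the untreated one. Some members were near the floor, such as Ear6, at most 1.07 CPM in irradiated libraries and at 0.0631 CPM in the untreated one. The 14 NF-kB and immediate early genes had a median of 0.25, the 9 chemokine receptors of 0.74 and the 17 genes of myeloid development of 0.9.

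The remaining lists are given by their median log2 fold change, with the number of tested genes. It was -0.01 for 20 genes of alternative activation and tissue repair, 0.99 for 11 attractants of T cells or monocytes, 0.95 for 5 neutrophil attractants and 0.83 for 7 sort markers. Among marker lists it was -0.61 for 5 genes of B and plasma cells, 0.11 for 8 of cDC1 and -0.83 for 10 of cDC2 and mature dendritic cells. It was -0.1 for 6 genes of plasmacytoid dendritic cells, 1.47 for 8 of mast cells and basophils, 0.43 for 4 of carcinoma epithelium, -0.05 for 7 of erythroid cells and platelets, 1.9 for 15 of NK cells and 0.65 for 14 of T cells. The mast cell and basophil genes summed to 23.7, 34.8, 24 and 22.2 CPM in irradiated libraries and 33.8 CPM in the untreated one, so their sum and their median differ in direction.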
